A study of Homo sapiens with 4 samples.

Results

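The protein genes of the core spliceosome were followed through hnRNPM depletion in metastatic breast cancer cells. They were chosen by gene symbol: the SNRP, SNRNP, SF3A, SF3B, PRPF and numbered LSM families, both U2AF genes and EFTUD2, with SNRPN and pseudogenes left out. The symbols matched 60 of 20329 genes, and 54 remained after 6 pseudogenes were removed. All 54 passed the filter of a mean of at least 1 FPKM (fragments mapped to a gene, scaled to its length and to the size of the library). The cells were MDA-MB-231 BM1 (1833) and MDA-MB-231 LM2 (4175), derivatives of a human breast cancer line of the triple-negative type, which the labels tie to bone and lung metastasis. Each line gave 1 library of polyadenylated RNA from cells with a non-specific shRNA (control) and 1 from cells with an shRNA against hnRNPM (knockdown), both stably expressed from lentiviral vectors. In such bulk libraries fewer expressing cells and less RNA per cell cannot be told apart. With 1 library per line and treatment, a change within a line compares 2 libraries and has no replicate check. The labels do not say whether the cells of a line were clones, and they name no other shRNA against hnRNPM, so an effect of that shRNA on other genes cannot be told apart from depletion.

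Whole steps in the low FPKM values placed the depth at about 22800000 and 27300000 fragments for the BM1 and LM2 knockdowns and 31300000 and 41500000 for their controls. The step was inferred from the values and is uncertain for the knockdowns, where a step for 45700000 and 54500000 fragments made more values whole (55.9% and 53.9%, against 42.2% and 42.9%). It was passed over because 18.9% and 14.6% of its whole values were odd, against 54.7% and 52.6% in the BM1 and LM2 controls. At the larger step the knockdowns would be deeper than their controls. The targeted gene, HNRNPM, stood at 171 FPKM in the control and 28.4 in the knockdown of BM1, against 132 and 20.3 in LM2. Of all FPKM, mitochondrial genes held 9.31% and 12.8% in BM1 control and knockdown, and 8.80% and 11.8% in LM2. The cells carried the keratin genes KRT8 and KRT18 (129 FPKM or more in every library) together with VIM (1160 or more) and CD44 (155 or more), while EPCAM was at 4.59 FPKM or less. ESR1, PGR and the fixed markers of blood, endothelial, liver and lung cells were not analysed here.

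The spliceosome removes introns from pre-mRNA and is assembled from small nuclear ribonucleoproteins (snRNPs). Each carries a small nuclear RNA, a ring of Sm or LSM proteins closed around that RNA, and proteins particular to the particle. U1 reads the 5′ splice site, U2AF and U2 read the 3′ splice site and the branch site, and the U4/U6 and U5 particles join as a tri-snRNP that is rebuilt into the catalytic machine. hnRNPM is a regulatory RNA-binding protein outside these particles, which are needed in every dividing cell.

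The levels were described first, in FPKM, which is scaled to gene length. Genes were set side by side on that scale, though the lengths behind it are not given. Of the 54 genes, 50 had a mean over the libraries of at least 10 FPKM. SNRPB, which encodes the SmB and SmB′ proteins, was highest, with 405 and 287 FPKM in BM1 (control, then knockdown, the order kept from here on) and 304 and 238 in LM2. SNRPC, a U1 protein, followed at 250, 225, 154 and 168 FPKM, where 4 values run from BM1 to LM2. LSM4 and SF3B2 came next, with means of 142 and 107 FPKM. The libraries of LSM4 (92.6 to 225 FPKM) overlapped those of SNRPC and of SF3B2 (90.2 to 129), so their order was within the spread. The next 6 genes lay between means of 105 (PRPF8) and 92.2 FPKM (PRPF19) and could not be ordered either.

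At the low end stood LSM11, a protein of the U7 particle that processes histone mRNA, at 2.45, 1.87, 2.76 and 3.03 FPKM. SNRNP48, of the minor U11/U12 particle, was at 6.09, 6.26, 6.49 and 4.59 FPKM. Its range ran into that of PRPF40B (3.74 to 12.3 FPKM), a U1-associated protein. PRPF38A, a protein of the precatalytic spliceosome, was at 9.99, 9.45, 9.63 and 8.86 FPKM. The lowest 4 genes therefore did not separate fully from each other, apart from LSM11, whose highest library was below the lowest library of the others.

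**Figure D1:**
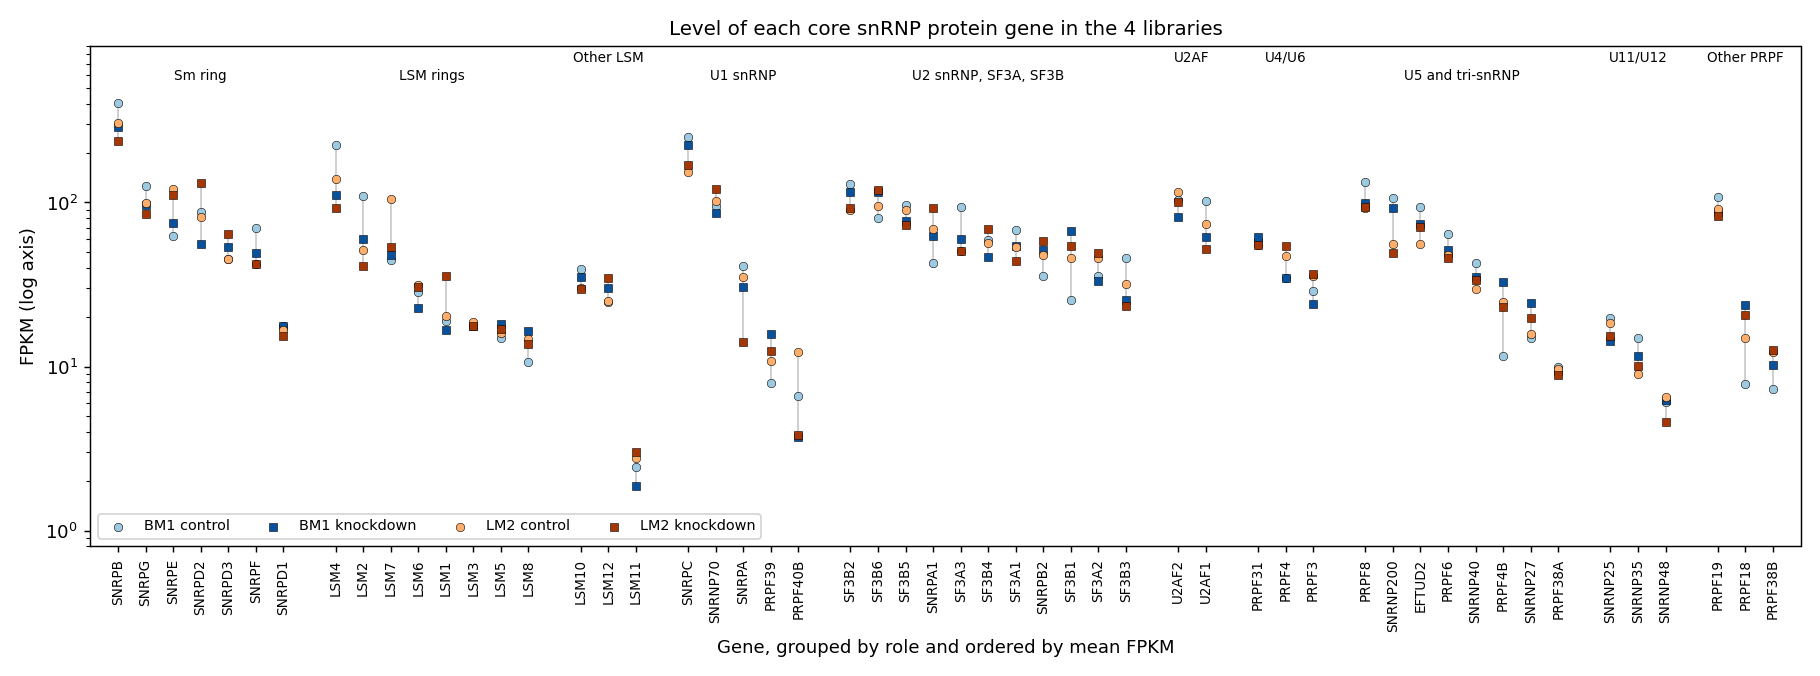
FPKM (log axis) of 53 of the genes in the 4 libraries, grouped by role and ordered by mean. Points are single libraries and grey lines span them; SNRPB stands above the other Sm genes and SNRPD1 below them in every library.

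The start regions of these genes were read for letters common in promoters of widely expressed genes. The RefSeq promoter table (GRCh38.p14, 250 bases before to 50 after the start) held 45 of the 54 genes by symbol. The motif CCGGAAG, the core letters bound by ETS family factors, was searched on both strands and was present in 20 of the 45 (44.4%). It was present in 23.5% of the 9127 tested genes with a promoter in the table and in 12.2% of all 27305 genes there. The CCAAT box letters, CCAAT on either strand, were in 42.2% of the spliceosome promoters and 43.5% of those of tested genes. TATAAA was in 1 of the 45 (2.22%) against 7.91%. No searched motif contains another, and a match is a description of the sequence, with no binding measured. Shown are the last 100 bases before the start for the 4 most abundant genes with the ETS letters there, with those letters in capitals (CTTCCGG is the motif on the other strand). They lie at chr20:2470790-2470889 (minus strand), chr11:66052264-66052363 (plus strand), chr2:24076327-24076426 (minus strand) and chr2:70293459-70293558 (minus strand). SNRPB, SF3B6 and SNRPG hold the motif 1 time in this stretch and SF3B2 2 times.
SNRPB: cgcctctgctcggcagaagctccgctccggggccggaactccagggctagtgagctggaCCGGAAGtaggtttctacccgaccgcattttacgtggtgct
SF3B2: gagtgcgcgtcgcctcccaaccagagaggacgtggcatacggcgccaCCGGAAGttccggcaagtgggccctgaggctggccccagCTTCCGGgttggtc
SF3B6: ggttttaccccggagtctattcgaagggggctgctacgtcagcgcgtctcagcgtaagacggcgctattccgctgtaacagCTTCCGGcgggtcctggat
SNRPG: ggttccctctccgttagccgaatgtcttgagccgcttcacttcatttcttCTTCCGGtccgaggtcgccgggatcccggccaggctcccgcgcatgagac

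Some values rest on sequence that other listed genes also carry. Within the coding sequences, near copies (at least 95% identity over at least 100 bases) were searched among the transcripts of all listed genes. SNRPG, which encodes the SmG protein, was at 126, 96.9, 99.9 and 85.1 FPKM, and 3 pseudogenes with nearly the same letters were listed beside it. SNRPGP10 was at 38.8, 29.6, 30.3 and 26.1 FPKM and SNRPGP2 at 23.0, 14.9, 16.9 and 14.3. SNRPGP15 was lower, at 2.60 to 5.40 FPKM. The first 90 coding bases of SNRPG and the matching bases of its copies (GENCODE 29 transcripts) are set below one another, with each base that differs between SNRPG and a copy in capitals. SNRPGP10 and SNRPGP2 differ from SNRPG at 1 of these bases each and SNRPGP15 at 3.
SNRPG: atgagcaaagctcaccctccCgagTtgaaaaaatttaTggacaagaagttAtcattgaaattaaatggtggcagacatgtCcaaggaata
SNRPGP10: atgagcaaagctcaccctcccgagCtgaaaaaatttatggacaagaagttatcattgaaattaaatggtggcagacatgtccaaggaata
SNRPGP15: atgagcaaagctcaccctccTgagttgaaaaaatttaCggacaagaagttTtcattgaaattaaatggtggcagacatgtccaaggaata
SNRPGP2: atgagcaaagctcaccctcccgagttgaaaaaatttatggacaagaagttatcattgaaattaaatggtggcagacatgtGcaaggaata

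The 3 copies together took 32.7% to 34.8% of the summed FPKM of SNRPG and its copies in every library, so the division varied little while the sum ran from 194 to 130 FPKM. LSM12 (24.8 to 34.7 FPKM) shares 495 of 495 aligned coding bases with LSM12P1, which was at 14.1 to 17.8 FPKM. U2AF1 shares 720 of 720 with U2AF1L5, which the table places at the same position on chromosome 21 and which held 14.6% to 23.3% of their sum. How the authors' counting divided such fragments is unknown here, so the levels of these 3 genes are uncertain. In the table's coordinates 27 of the 54 genes overlap another listed gene, 22 of them one on the opposite strand, and whether strand was used in counting is not stated.

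The effect of hnRNPM depletion over both lines was tested next. None of the 54 genes was called by limma at an adjusted p under 0.05 (0 of 54), where 5.47% of the 13928 tested genes were. At an unadjusted p under 0.05 there were 8 of 54 (14.8%), against 24.9% of all tested genes. The median average change was -0.05 on the log2(FPKM + 1) scale, beside -0.01 over all tested genes. The model had the line as a block and 1 residual degree of freedom, so its spread is how far the lines differed in their change, steadied over all genes by limma. No gene anywhere was called with an average change smaller than 1.04 in size. The 95% intervals of the spliceosome genes had half-widths of 0.57 to 0.82, and 40 of the 54 lay within 2-fold in both directions. For the other 14, a 2-fold difference is inside the interval. An exact permutation test of 2 pairs cannot give a two-sided p below 0.5.

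The most negative average change was that of PRPF40B, which was at 6.62 FPKM in the BM1 control and 3.74 in its knockdown, and at 12.3 and 3.81 FPKM in LM2. Both knockdown libraries were below both controls. On the log2(FPKM + 1) scale it averaged -1.07 ± 0.28 (standard error; adjusted p = 0.0631 by limma). With genes under a mean of 5 FPKM left out the adjusted p was 0.0473, and over all alternatives it ran from there to 0.815. The opposite strand of PRPF40B holds FMNL3, which was at 8.04 and 1.13 FPKM in BM1 and 9.62 and 3.67 in LM2. The part of FMNL3 in the PRPF40B values was not tested. Genes named for a large average change or line difference were chosen from these same values, which favours groups that do not overlap. The share of all tested genes with groups apart was not taken.

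At an unadjusted p under 0.05 there were 3 of the 6 U1 genes with the knockdown, against 24.9% of all tested genes. These are too few genes to read from, and the median change of the 6 was 0.02. PRPF40B and SNRPA were among the 3, while SNRNP70 and PRPF39 were not. Of the U2 genes there were 2 of 11, and of the LSM ring genes 1 of 8. SNRPA, which binds a stem loop of U1 RNA, was at 41.0 and 30.6 FPKM in BM1 and 34.9 and 14.2 in LM2. Both knockdowns were below both controls, and the average change was -0.83 ± 0.29 (adjusted p = 0.126). SNRNP70, which encodes U1-70K, was at 95.4, 86.9, 101 and 120 FPKM, with controls and knockdowns overlapping. PRPF39, which joins early U1 complexes, was at 7.94 and 15.9 FPKM in BM1 and 10.8 and 12.5 in LM2 (0.56 ± 0.28, adjusted p = 0.259). FKBP3, on the opposite strand of PRPF39, was at 38.4, 31.5, 38.2 and 35.2 FPKM, and its part in the PRPF39 values was not tested. Relative to SNRNP70, SNRPA was at 0.430, 0.352, 0.344 and 0.118, lowest in the LM2 knockdown.

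The genes of the Sm ring, made of 7 proteins in equal number, were not at equal FPKM. The transcripts used here for length had 1154 bases for SNRPB and 4909 for SNRPD1. The lengths behind the FPKM are unknown here, and their part in the ratios below was not tested. In the BM1 control the highest gene, SNRPB, was 23.1 times the lowest, SNRPD1, and in the other libraries 15.5 to 18.3 times. SNRPD1 was also the steadiest Sm gene, at 17.6, 17.6, 16.6 and 15.4 FPKM. SNRPD3 was at 45.3, 53.3, 45.3 and 63.8 FPKM, and both knockdowns were above both controls. The opposite strand of SNRPD3 holds GUCD1, at 17.7, 26.9, 18.4 and 31.3 FPKM, and its part in the SNRPD3 values was not tested. SNRPF was at 69.4, 48.9, 41.9 and 42.1 FPKM, so that only the BM1 control stood apart. SNRPE was higher in both LM2 libraries (120 and 111 FPKM) than in both BM1 libraries (62.3 and 74.7).

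SNRPD2 had the most unlike changes in the 2 lines among the Sm genes. It was at 87.0 and 55.9 FPKM in BM1 and 81.1 and 132 in LM2, a difference of -0.63 and 0.69 on the log2(FPKM + 1) scale. The controls were close and the knockdown libraries were the lowest and the highest of the 4. Summed over the ring, the Sm genes gave 813, 634, 709 and 688 FPKM. At an unadjusted p under 0.05 there were 0 of the 7, against 24.9% of all tested genes, too few genes to read from.

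The LSM genes form a nuclear ring (LSM2 to LSM8) that binds the end of U6 RNA and a cytoplasmic ring (LSM1 to LSM7) that acts in mRNA decay. LSM4, shared by both, was at 225 and 110 FPKM in BM1 and 139 and 92.6 in LM2. Both knockdowns were below both controls (-0.80 ± 0.26, adjusted p = 0.109). LSM2, also shared, was at 109 and 60.2 FPKM in BM1 and 51.1 and 40.9 in LM2 (-0.58 ± 0.27, adjusted p = 0.219), and the groups overlapped. LSM3 was nearly flat, between 17.6 and 18.7 FPKM.

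The genes that tell the LSM rings apart were compared by their ratio. LSM1 was at 19.1, 16.6, 20.2 and 35.5 FPKM and LSM8 at 10.7, 16.5, 14.6 and 13.7. LSM1 over LSM8 was 1.78 in the BM1 control and 1.01 in its knockdown, and 1.38 and 2.59 in LM2. The ratio was thus lower in the knockdown of BM1 and higher in that of LM2. With the GC content and length trends removed, the BM1 changes of LSM1 and LSM8 were -0.08 and -0.02 in place of -0.19 and 0.58, so that the difference in BM1 was all but gone. LSM1 overlaps RP11-90P5.2 on the opposite strand, at 14.8, 25.4, 16.4 and 26.8 FPKM, and its part in the LSM1 values was not tested. LSM7 was at 44.7 and 48.1 FPKM in BM1 and 104 and 53.3 in LM2, where the LM2 control alone was high. The LSM ring genes summed to 470 and 310 FPKM in BM1 and 396 and 301 in LM2. LSM4 and LSM2 took most of that difference in BM1, and LSM7 and LSM4 in LM2.

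The 11 genes of U2 proteins, which recognise the branch site, changed in both directions with the knockdown. The average change was positive for 5 and negative for 6, with a median of -0.03, and 0 were called. SF3B1, the large SF3B subunit that holds the branch site helix, was at 25.5 and 66.7 FPKM in BM1 and 46.0 and 54.1 in LM2. The BM1 control was the low library and the other 3 lay within 46.0 to 66.7. The average change was 0.79 ± 0.32 (adjusted p = 0.166), made of 1.36 in BM1 and 0.23 in LM2. SF3B3, its partner in the same complex, was at 45.7 and 25.5 FPKM in BM1 and 31.8 and 23.4 in LM2 (-0.62 ± 0.26, adjusted p = 0.181). Both SF3B3 knockdowns were below both controls.

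SF3B1 over SF3B3 was 0.558 and 2.62 in BM1 and 1.45 and 2.31 in LM2. SF3B1 over SF3B2 was 0.197 and 0.577 in BM1 and 0.510 and 0.581 in LM2, which mainly set the BM1 control apart. The first ratio was chosen after its values were seen, and neither was tested. SF3B2 was at 129, 116, 90.2 and 93.0 FPKM, above in both BM1 libraries. SNRPA1 and SNRPB2, which encode proteins bound to U2 RNA, were higher in the knockdown of each line. SNRPA1 was at 42.8 and 62.7 FPKM in BM1 and 69.1 and 92.4 in LM2, and SNRPB2 at 35.5 and 51.4 and at 48.0 and 57.9. SF3B6, which lies against SF3B1, was at 80.7 and 115 FPKM in BM1 and 94.6 and 118 in LM2. These 3 had average changes of 0.48, 0.40 and 0.41 with adjusted p-values of 0.280 to 0.372 in limma.

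U2AF1, which reads the AG of the 3′ splice site, was at 103 and 61.3 FPKM in BM1 and 73.4 and 52.1 in LM2. Both knockdowns were below both controls (-0.61 ± 0.25, adjusted p = 0.181). Summed with its identical copy U2AF1L5, the values were 122 and 75.7 FPKM in BM1 and 95.8 and 61.0 in LM2, with the same order. U2AF2, its partner on the polypyrimidine tract, was at 103, 81.2, 116 and 100 FPKM. U2AF1 over U2AF2 was 0.998 and 0.755 in BM1 and 0.633 and 0.519 in LM2, lower in the knockdown of each line.

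Of the U5 and tri-snRNP genes 0 of 8, and of the U4/U6 genes 0 of 3, had an unadjusted p under 0.05 with the knockdown, against 24.9% of all tested genes. PRPF8, the scaffold around the catalytic RNA, was at 133, 99.9, 92.7 and 93.4 FPKM. EFTUD2, a GTPase beside it, was at 94.5, 73.8, 56.1 and 70.4 FPKM. SNRNP200, the helicase that unwinds U4 from U6, was at 107 and 92.8 FPKM in BM1 and 55.7 and 49.1 in LM2. In PRPF8 the BM1 control alone was high, and in SNRNP200 both BM1 libraries were. The U4/U6 proteins PRPF3, PRPF4 and PRPF31 had average changes of -0.10, 0.10 and 0.03. PRPF31 lay between 55.2 and 61.4 FPKM in all 4 libraries.

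The most positive average change was that of PRPF18. PRPF18, which acts in the second step of splicing, was at 7.81 and 23.8 FPKM in BM1 and 14.9 and 20.6 in LM2. Both knockdowns were above both controls (0.96 ± 0.31, adjusted p = 0.104). PRPF4B, a kinase of the tri-snRNP, was at 11.5 and 32.6 FPKM in BM1 and 24.7 and 22.9 in LM2 (0.66 ± 0.36, adjusted p = 0.295). Its BM1 control was the only library below 22.9. SNRNP27 was at 15.0 and 24.5 FPKM in BM1 and 15.7 and 19.7 in LM2 (0.49 ± 0.26, adjusted p = 0.282). The minor spliceosome genes SNRNP25, SNRNP35 and SNRNP48 had average changes of -0.35, -0.09 and -0.19.

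Some average changes with the knockdown were also read within 1 line. Within LM2 the change was -0.32 for LSM2, -0.10 for PRPF4B, 0.23 for SF3B1 and -0.58 for LSM4. It was -0.43 for SF3B3, -0.49 for U2AF1, 0.19 for PRPF39 and 0.44 for PRPF18. Within BM1 SNRPA was at -0.41 and PRPF40B at -0.68. Fits with 1 library left out had no line block, so a line difference enters their knockdown change. Without the BM1 control, LSM2 was at -0.04, PRPF4B at 0.14, SF3B1 at 0.38, LSM4 at -0.46, SF3B3 and U2AF1 at -0.37, PRPF39 at 0.35 and PRPF18 at 0.54 on the log2(FPKM + 1) scale. Without the LM2 knockdown SNRPA was at -0.30, and without the LM2 control PRPF40B was at -0.67. These fits called 0 genes anywhere.

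**Figure D2:**
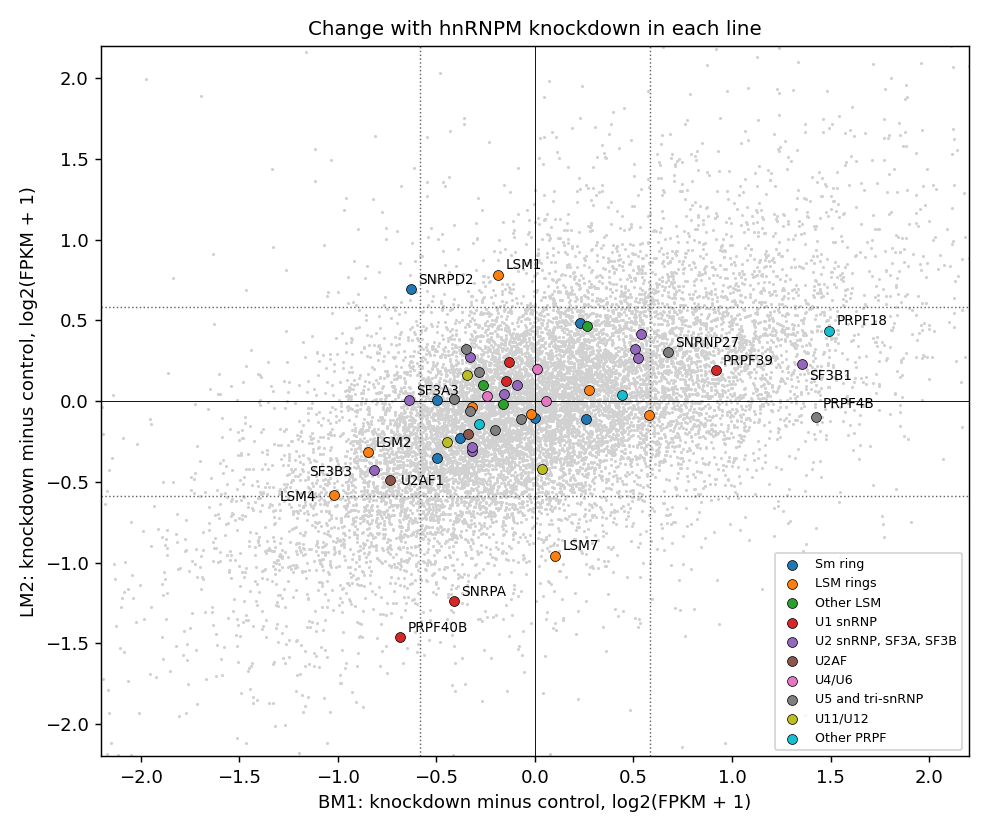
Knockdown minus control on the log2(FPKM + 1) scale in BM1 (x axis) and LM2 (y axis), 1 library per arm, with 53 of the genes coloured by role over all tested genes in grey, cropped at the axis limits. Dotted lines mark 1.5-fold; PRPF40B is past them in the same direction in both lines, LSM4 is past the BM1 line and just short of the LM2 line (-0.58), and SNRPD2 lies past them in opposite directions.

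On the log2(FPKM + 1) scale 6 of the 54 genes were at least 1.5-fold higher in the knockdown library of BM1 (11.1%, against 21.0% of all tested genes) and 7 at least 1.5-fold lower (13.0% against 16.8%). At 2-fold, 4 were higher (10.1% of all tested genes) and 1 lower (6.20% of all). The higher genes included PRPF18, PRPF4B, SF3B1, PRPF39 and SNRNP27, and the lower ones were LSM4, LSM2, SF3B3, U2AF1, PRPF40B, SF3A3 and SNRPD2. With FPKM rescaled to the sum outside the mitochondrial genome the split was 10 higher and 4 lower (24.8% and 13.3% of all tested genes), and with quantile normalization 8 and 5 (19.1% and 18.6%). That rescaling moved the median of all tested genes in BM1 from 0.00 to 0.10. Within LM2, 2 genes were at least 1.5-fold higher (LSM1 and SNRPD2, 3.70% against 10.7%) and 3 lower (PRPF40B, SNRPA and LSM7, 5.56% against 13.9%). At 2-fold, 0 were higher (3.83% of all tested genes) and 2 lower (4.24% of all). At 1.5-fold each of these shares was below that of all tested genes. LSM8 in BM1 (0.58) and LSM4 in LM2 (-0.58) lay just short of 1.5-fold on this scale, although their FPKM ratios were 1.54 and 0.665. With a pseudocount of 0.1 or 0.5 both were past it, giving 7 higher genes in BM1 and 4 lower in LM2. The median size of a change, in either direction, was 0.34 in BM1 and 0.22 in LM2, beside 0.44 and 0.32 over all tested genes.

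Library by library, the BM1 control was the highest for 23 of the 54 genes (42.6%, against 29.7% of all tested genes). It was the lowest for 16 (29.6% against 31.0%). The LM2 knockdown was the lowest for 18 (33.3% against 26.5%) and the highest for 14 (25.9% against 20.6%). The summed FPKM of the 54 genes was 3446 in the BM1 control and 2953, 2988 and 2918 in the others. Of the FPKM outside the mitochondrial genome they held 0.835%, 0.777%, 0.754% and 0.758%. The change was larger in BM1 than in LM2, in absolute size, for 40 of the 54, and 32 had the same sign in both lines. All tested genes also changed more in BM1, with a median size of 0.44 against 0.32 in LM2. The shares of all tested genes for these counts were not taken, so whether the counts are particular to the 54 is not known. Each of the 6 genes higher in BM1 had its lowest value in the BM1 control. They were chosen for a BM1 control below the BM1 knockdown, so a low control is partly fixed by that choice. No share was taken over all tested genes chosen in the same way.

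**Figure D3:**
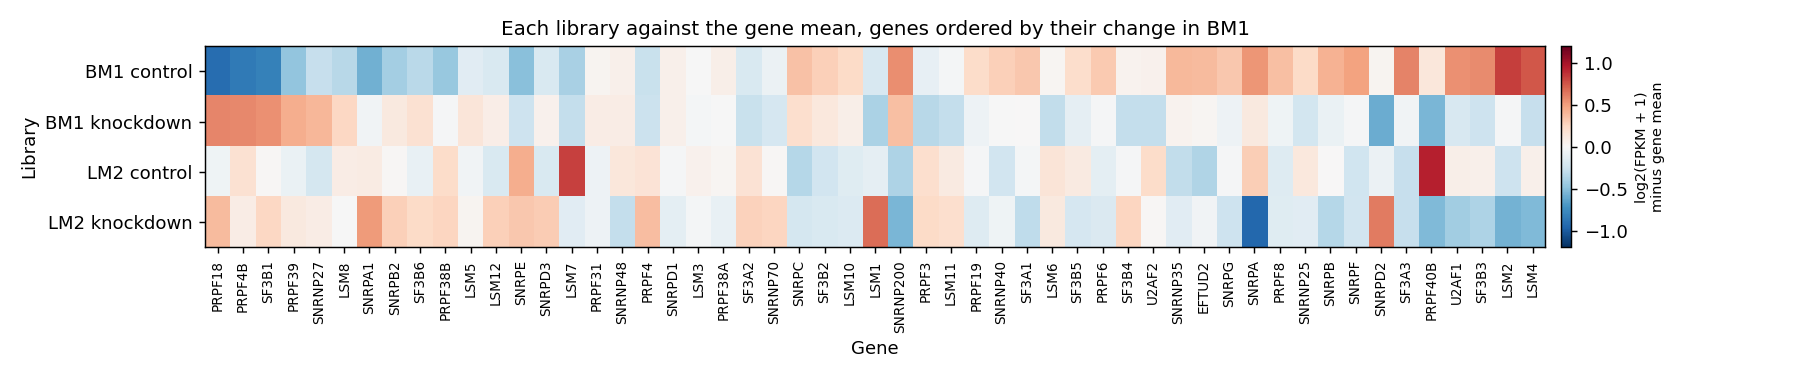
log2(FPKM + 1) of each library minus the mean of the gene over the 4 libraries (colour), with 53 of the genes ordered by their change in BM1. The BM1 control row runs from blue at PRPF18 to red at LSM2 and LSM4; in LM2 the darkest cells are the control at PRPF40B and LSM7 and the knockdown at SNRPA.

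GC content moved with these changes. The 6 genes higher in the BM1 knockdown had transcripts of 36.9% to 41.0% GC (median 39.2%), and the 7 lower genes 46.1% to 59.5% (median 54.5%), against a median of 48.6% over all tested genes. Across the 54 genes the change in BM1 and GC content had a Spearman rho of -0.51 and a Pearson r of -0.55. Across 13723 tested genes these were -0.43 and -0.38. In LM2 the rho was -0.28 across the 54 and -0.19 across all. Genes are not independent replicates and the values of each line all come from the same pair of libraries, so they are descriptions. Once that trend, and the one with length, were removed, 3 of the 6 genes (PRPF18, PRPF4B and SF3B1, at 1.09, 0.87 and 0.82) and 3 of the 7 (LSM4, SF3B3 and U2AF1) were still past 1.5-fold in BM1. SNRPA1 was then also past it on the higher side, and LSM6, PRPF38A, SNRPF (-1.13) and SNRPG (-0.80) on the lower side, so that the totals were 4 and 7. PRPF39 and SNRNP27 were then at 0.32 and 0.20. In LM2 all 5 genes past 1.5-fold were still past it. Whether GC content takes part in the changes was not tested.

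**Figure D4:**
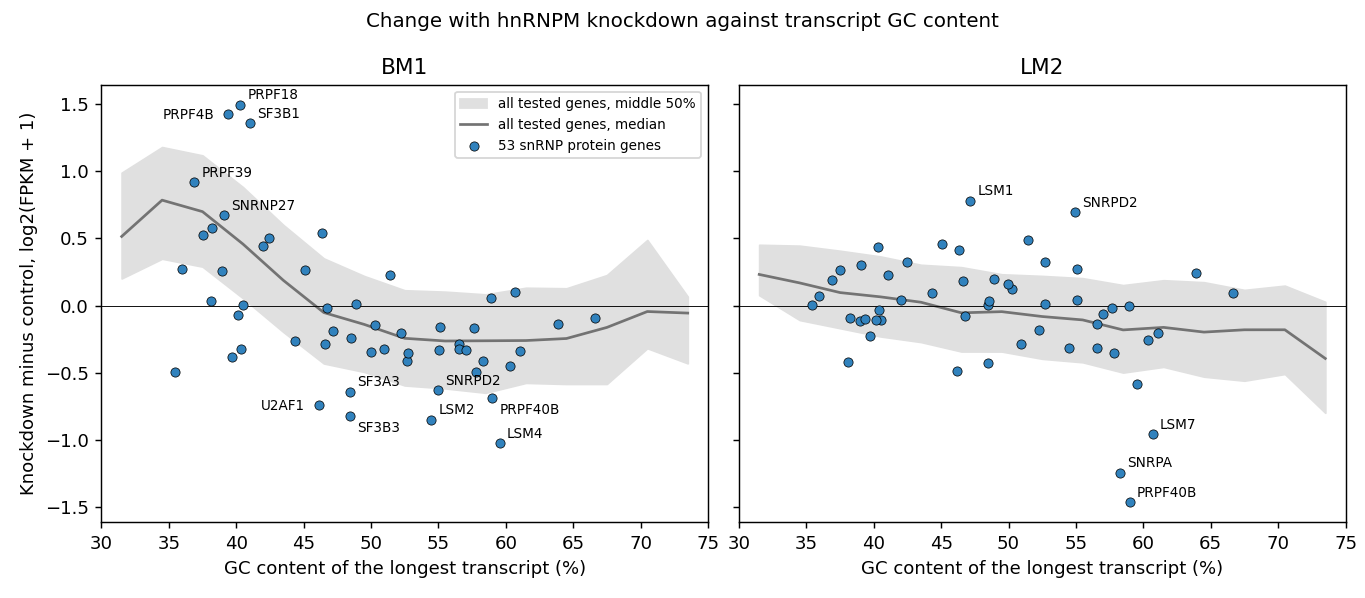
Knockdown minus control on the log2(FPKM + 1) scale against the GC content of the longest GENCODE 29 transcript, for BM1 (left) and LM2 (right). Blue points are 53 of the genes, and the grey line and band are the median and middle 50% of all tested genes in steps of GC content; the labelled genes high in BM1 sit at 36.9% to 41.0% GC, where the grey line is also above 0.

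The lines were compared over both treatments. None of the 54 genes differed at an adjusted p under 0.05 in limma (0 of 54, against 4.35% of all tested genes), and 4 did at an unadjusted p under 0.05 (7.41% against 22.4%). SNRNP200 had the largest difference of the 54, LM2 minus BM1 at -0.92 ± 0.25 (log2, standard error, adjusted p = 0.0807), and both LM2 libraries were below both BM1 libraries. LSM2, SNRPA and SF3A3 had negative differences of -0.81, -0.64 and -0.56 (adjusted p = 0.119, 0.231 and 0.271 in limma). SNRPE, LSM7, SNRPA1 and LSM1 had positive ones of 0.75, 0.68, 0.62 and 0.57 (adjusted p = 0.134, 0.239, 0.195 and 0.307 in limma). The difference was also read within 1 treatment. Between the knockdowns LSM2 was at -0.55, SF3A3 at -0.23, SNRPA1 at 0.55 and LSM7 at 0.15. Between the controls SNRPA was at -0.23 and LSM1 at 0.08. Fits with 1 library left out had no treatment term, so a knockdown change enters their line difference. Without the BM1 control LSM2 was at -0.39, SF3A3 at -0.24 and SNRPA1 at 0.35. Without the LM2 knockdown SNRPA was at -0.02 and LSM1 at 0.17, and without the LM2 control LSM7 was at 0.20. SNRNP200 stayed between -1.02 and -0.82 and SNRPE between 0.62 and 0.88 with any 1 library left out. SF3A3, a subunit that clasps U2 at the branch site, was at 93.2 and 59.5 FPKM in BM1 and 50.3 and 50.5 in LM2. The median difference of the 54 genes was -0.01, the same as over all tested genes.

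Other genes of the pathway, in lists written from general knowledge, were read from the same fit. Of 19 genes for snRNP assembly and import 0 were called with the knockdown, as were 0 of 47 other spliceosome genes and 0 of 5 exon junction genes, against 5.47% of all tested genes. At an unadjusted p under 0.05 in limma there were 1, 5 and 0, against 24.9%. Their median changes were 0.09, 0.13 and -0.18. PHAX, which exports new snRNA, was at 9.95 FPKM in the BM1 control and at 21.9 or more in the other libraries, with 31.9 in the BM1 knockdown. SMN2, a gene of the SMN complex with a near-identical copy in SMN1, had an average change of 0.37. GEMIN2 and GEMIN6, proteins of that complex, had average changes of -0.61 and -0.53. WBP4 and RNPC3, the latter a U11/U12 protein, had 1.04 and 0.90. ZMAT5, also of U11/U12, and LUC7L, a U1-associated protein, had -1.16 and -0.62. In the exon junction list MAGOH and MAGOHB had 0.23 and 0.19, and CASC3 and EIF4A3 -0.30 and -0.28. Between the lines 0 of the 19, 1 of the 47 and 0 of the 5 were called, against 4.35% of all tested genes. The called gene was TXNL4A, a small U5 protein, at 36.3 and 25.5 FPKM in BM1 and 13.5 and 10.3 in LM2 (-1.30, limma adjusted p = 0.0270). With no filter on low values 0 genes were called between the lines.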

How the data were processed

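Polyadenylated RNA of 4 libraries was sequenced as stranded read pairs, per the labels' protocols. The authors deposited 1 table of FPKM values. STAR 2.5.3a, Cuffdiff 2.2.1 and GRCh37 are named in the submitters' processing notes. The sources used here do not give the annotation or the use of strand. Of 20369 entries 40 were left out for repeated identifiers. FPKM was tested as log2(FPKM + 1) for the 13928 genes with a mean of at least 1 FPKM, with limma 3.58.1 in R 4.3.3, line and treatment as terms, and Benjamini-Hochberg adjustment over all tested genes (threshold 0.05). The line pairs the samples, since both libraries of a pair come from the same cell line. Changes within a line have no test and were described at 1.5-fold and 2-fold. In the low FPKM values 35.9% to 44.1% came out as whole steps within 0.02, too few for a count test. The knockdown fit was also run on simulated data, with the outcome not reported here. The naming rule took every called gene, the 6 largest average knockdown changes in each direction, the 4 largest line differences in each direction, the 3 most opposed between lines, the 4 highest and 4 lowest levels, the Sm genes, LSM1, LSM8 and a few core subunits; in the other lists, called genes and the 2 largest changes in each direction. LSM3, LSM12, PRPF3, PRPF4, PRPF31, SNRPB2, SF3B6, SMN1 and the U11/U12 genes were named after their values were seen. The members, lists and rules were chosen with earlier results of these data known. GC content, length and coding sequence came from GENCODE 29 by gene identifier, and promoters from RefSeq (GRCh38.p14). Alternatives covered the pseudocount, the filter, the scaling, the line block, each library left out and, added after seeing the data, a fit without the GC content and length trends. The values of 1 gene are not reported here; it is left out of the figures and kept in all counts and sums.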

Additional observations from a re-analysis of the deposited data

Results flagged for a closer look

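Of the 54 genes, 22 had changes of opposite sign in BM1 and LM2, and the 3 with the widest gap were flagged. None of these differences was tested, since each arm is 1 library. PRPF4B was at 11.5 and 32.6 FPKM in the BM1 control and knockdown and at 24.7 and 22.9 in LM2, so that the LM2 change minus the BM1 change was -1.53 on the log2(FPKM + 1) scale. SNRPD2 had 87.0 and 55.9 FPKM in BM1 and 81.1 and 132 in LM2, a difference of 1.32. LSM7 had 44.7 and 48.1 FPKM in BM1 and 104 and 53.3 in LM2, a difference of -1.06. The change of PRPF4B within LM2 (-0.10) was smaller than the median size over all tested genes there (0.32). So was that of LSM7 within BM1 (0.10, against 0.44).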

How the results depend on the processing

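No value past its threshold changed sign under any alternative run, but 23 others did. Of these 6 were of a median: that of the knockdown (-0.05) was 0.02 without mitochondrial genes and 0.01 without the BM1 control, and that of the lines (-0.01) was 0.01 under 3 scalings and 0.04 without the BM1 knockdown. The other 17 were changes within a line, of 11 genes, such as LSM8 in BM1 (0.58, and -0.02 with the GC trend removed). With a filter at a mean of 5 FPKM, 1 of the genes (PRPF40B) was called with the knockdown, against 0 otherwise. The average changes of the 12 genes named for the knockdown and the 8 for the lines kept their direction. The fits with 1 library left out drop the pairing, so this shows no kept direction within each line. PRPF4B, at 0.66 on average, was at -0.10 within LM2. Nor does it show stability in size. With 1 library left out LSM2 went from -0.58 to -0.04 (knockdown) and SNRPA from -0.64 to -0.02 (lines). Within LM2 LSM2 was at -0.32, and between the controls SNRPA was at -0.23. The median line difference of -0.01 lay between -0.082 and 0.040 with a library left out. Rescaling without the mitochondrial genes gave 10 higher and 4 lower genes in BM1, and the 2-fold rule left 1 lower gene in BM1 and 0 higher in LM2. Over all genes the 762 knockdown calls were 27 with a pseudocount of 0.1, 613 with 0.5, 0 without a filter, 723 with the filter at 5 FPKM, 0 with quantile normalization, 702 with size factors, 16 without mitochondrial genes, 339 with the GC trend removed and 0 with any library left out. The 606 line calls were 216, 484, 0, 502, 104, 554, 154 and 441 under those settings and 6 to 28 with a library left out. Without the replicate block for the line, 0 genes were called with the knockdown, the 54 included, and 11 between lines. Fits with a library left out also had no term for the other factor, so line and knockdown differences mix in them. In those fits the lone sample of an arm is assumed to vary like the others. How far depth limits the precision was not tested.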
